A study of Mus musculus with 8 samples.

Results

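The 9 genes described here encode enzymes that carry the pathway from farnesyl pyrophosphate through squalene to cholesterol: Fdft1, Sqle, Lss, Cyp51, Tm7sf2, Msmo1, Nsdhl, Hsd17b7 and Dhcr7. They were taken by name along the pathway, all 9 names matched 1 row each of the 46078 genes in the count table, and all 9 passed the filter on low counts together with 14654 genes in all. Liver RNA was sequenced from 5 wild-type (WT) mice and 3 Rbfox2 knockout (Rbfox2 KO) mice, all on control diet with 30% (w/v) fructose in their drinking water for 22 weeks and all fasted when the liver was taken, for a length of time not given for these mice. By the study's methods the deletion came from loxP-flanked Rbfox2 and a Cre recombinase driven by the albumin promoter, which is active in hepatocytes, feeding began when mice were 8 weeks old, and mice were male unless stated otherwise. By the study's description both groups carried loxP-flanked Rbfox2 on both alleles, and WT mice lacked the Cre transgene. Each library is treated as 1 mouse, and whole liver was used, so fewer cells of a type and less RNA per cell cannot be told apart.

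Cholesterol synthesis has an early branch, which makes farnesyl pyrophosphate by way of mevalonate, and a late branch that is committed to sterols. In the late branch, 2 farnesyl units are joined to squalene, squalene is epoxidized and folded into lanosterol, and lanosterol loses its extra methyl groups and has its double bonds moved and reduced until cholesterol is reached. In liver, these genes are classical targets of the transcription factor SREBP2, which is held in the endoplasmic reticulum by the SCAP and INSIG proteins when sterol is plentiful and is released when sterol is scarce. Squalene epoxidase (Sqle) is a control point of the late branch. The comparison addresses how transcripts for these steps differ when the splicing regulator Rbfox2 is deleted in hepatocytes under a fructose diet.

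Libraries held 24829693 to 37823155 counts. Levels are given as CPM, the usual scale of counts relative to the library total, here after scaling by the trimmed mean of M-values (TMM). Rbfox2, the deleted gene, had 18.9 ± 3.39 CPM over the WT mice (SD, n = 5) and 9.28 ± 2.84 CPM over the Rbfox2 KO mice (SD, n = 3), with every Rbfox2 KO library below every WT library. The 8 hepatocyte marker genes summed to 69917 to 76968 CPM in WT and 65690 to 77510 CPM in Rbfox2 KO, and 0 of the 8 were at 0 in every library. Libraries within a group differed by more than counting error (chi-square over degrees of freedom, 45.7 to 350.0). Rbfox2 KO 1 stood apart. Transcripts of 12 pancreatic exocrine genes, among them Amy2a5 at 250.2 CPM and Ctrb1 at 31.5 CPM, summed to 444 CPM there, while WT 1 had 16.8 CPM and the remaining libraries 4.78 to 5.94 CPM. Its major urinary protein genes took 6.54% of counts, against 17.8% to 35.3% elsewhere, and its scaling factor was 1.29, against 0.821 to 1.13. The members' counts and fold changes and the counts of the other pathway lists are therefore also given without Rbfox2 KO 1.

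All 9 enzymes had lower mean levels in Rbfox2 KO than in WT livers, from 32.1% of the WT mean for Sqle to 94.3% for Hsd17b7. The differences were largest for Sqle, Msmo1 (45.1% of WT) and Nsdhl (52.4%), and these were the 3 members whose groups did not overlap. None of the 9 passed an edgeR adjusted p of 0.05, nor did any other gene tested (0% of 14654 genes). At an unadjusted p under 0.05, 8 of the 9 were lower in Rbfox2 KO, against 2.33% of all tested genes (4.74% in either direction), the exception being Hsd17b7. DESeq2 called 3 of the 9 lower at an adjusted p of 0.05 (Sqle, Msmo1 and Nsdhl), against 0.253% of the genes it tested (0.404% in either direction). Limma-voom called 0 of the 9 and 0% of all genes. At an unadjusted p under 0.05, limma-voom had 7 of the 9 lower, against 333 of 14654 genes (655 in either direction). Without Rbfox2 KO 1, or without WT 2, DESeq2 called only Sqle of the 9. It called Sqle and Nsdhl without WT 3, and Sqle and Tm7sf2 without Rbfox2 KO 3. The share over all genes is not given for these smaller DESeq2 fits. Every Rbfox2 KO library lay below every WT library for 3 of the 9, against 1.82% of all tested genes. The median log2 fold change was -0.54 over the 9 members and 0.000953 over all tested genes, of which 49.8% were below 0. Without Rbfox2 KO 1 the count at an unadjusted p fell to 5 (Sqle, Cyp51, Msmo1, Nsdhl and Dhcr7), while the median was -0.55. Over all genes tested without that library, 331 of 14867 were lower at an unadjusted p under 0.05 (570 in either direction). With library totals in place of the scaling factors the median of all genes moved to 0.12 and that of the members to -0.45, and 4 members had an unadjusted p under 0.05. That scaling also moved the split over all genes, from 341 lower of 694 at an unadjusted p under 0.05 to 120 lower of 465.

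**Figure D1:**
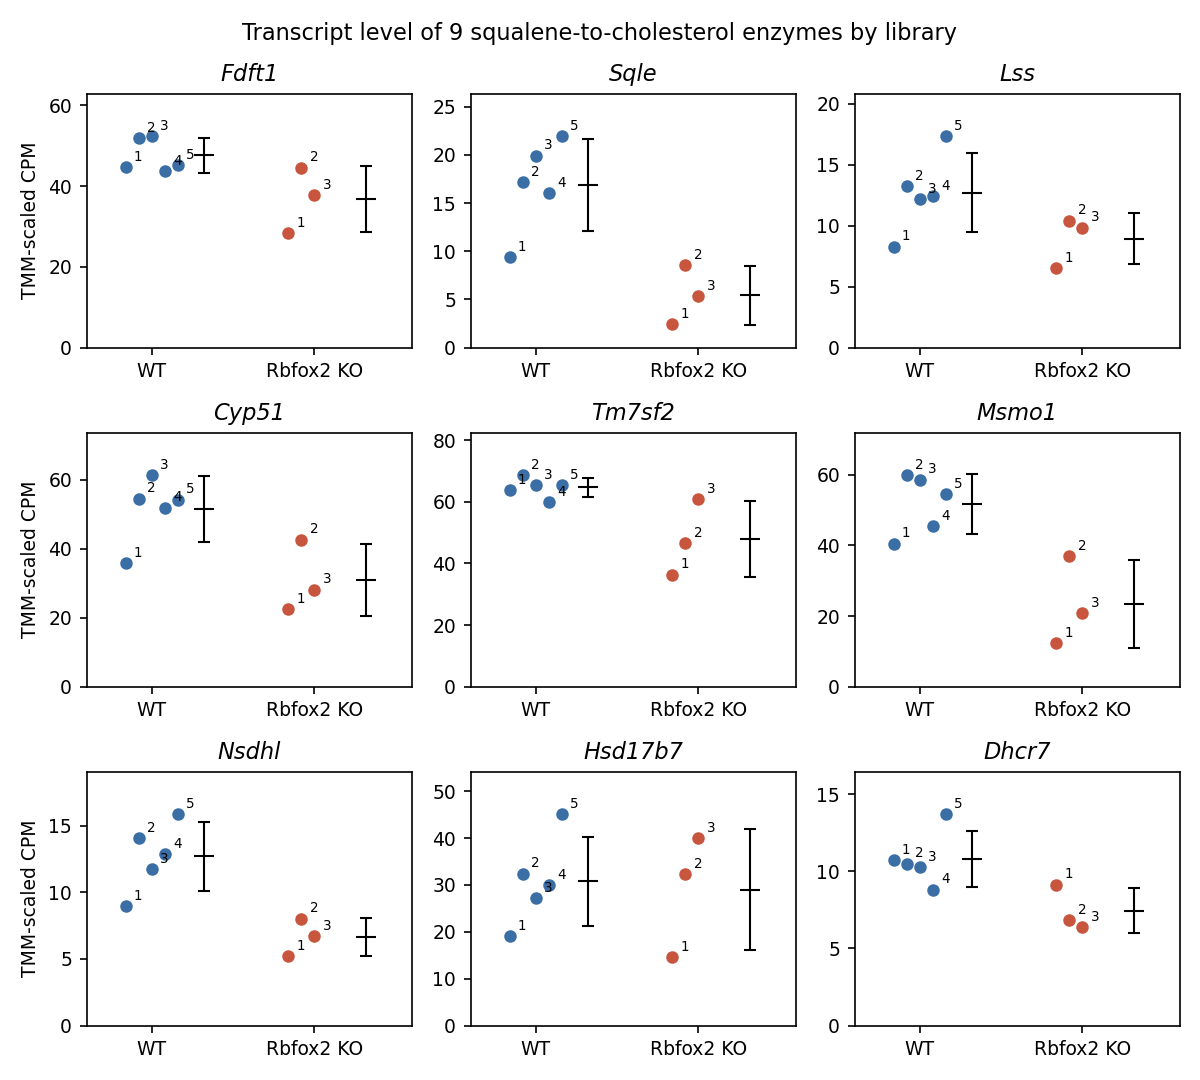
Level of each enzyme's transcript in TMM-scaled CPM (linear axis from 0) in 5 WT and 3 Rbfox2 KO libraries, with the library number beside each point and the mean and SD of each group as a black bar. For Sqle, Msmo1 and Nsdhl all 3 Rbfox2 KO points lie under all 5 WT points, and for Hsd17b7 the groups cover much the same range.

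The region before the start of these genes was read because the members share a known regulator. RefSeq windows (build GRCm38.p6) of 250 bases before to 50 bases after a start were held for 7 of the 9 members, in 9 windows, and not for Fdft1 and Sqle. Both strands were searched. The sterol regulatory element in the form TCACNCCAC occurred in 0 of the 9 windows and in 1.24% of all 32851 windows, or 1.18% of the 13334 windows of tested genes. Its shorter core TCACNNCA, which also matches every TCACNCCAC and was written after the members' windows had been read, occurred in 6 of the 9 windows (of Cyp51, Msmo1, Nsdhl, Hsd17b7 and Dhcr7), in 13.8% of all windows and in 11.6% of those of tested genes. In the bases before the start only, it occurred in 5 of the 9 windows, and not in that of Nsdhl. The shares there were 11.4% of all windows and 9.76% of those of tested genes. Dhcr7 holds more than 1 of the 9 windows, so windows are not separate genes. CACGTG, the palindromic E-box, occurred in 2 of the 9 windows (of Hsd17b7 and Dhcr7), in 7.15% of all windows and in 9.59% of those of tested genes. CCAAT, the letters read by the factor NF-Y, occurred in 7 of the 9 windows, in 37.4% of all windows and in 37.6% of those of tested genes. GGGCGG, the letters read by Sp1, occurred in 8 of the 9 windows, in 35.7% of all windows and in 59% of those of tested genes. The longest unbroken stretch before the start and outside annotated exons is shown for Cyp51, Nsdhl and Hsd17b7, with capitals marking TCACNNCA, CACGTG and CCAAT (written ATTGG where it lies on the other strand). Cyp51 and Nsdhl were lower in Rbfox2 KO at an unadjusted edgeR p under 0.05, and Hsd17b7 was not. The groups overlapped for Cyp51 and Hsd17b7. The stretches run 5′ to 3′ on the gene's strand, at chr5:4104747-4104947 (minus), chrX:72918412-72918520 (plus) and chr1:169969242-169969408 (minus).
Cyp51: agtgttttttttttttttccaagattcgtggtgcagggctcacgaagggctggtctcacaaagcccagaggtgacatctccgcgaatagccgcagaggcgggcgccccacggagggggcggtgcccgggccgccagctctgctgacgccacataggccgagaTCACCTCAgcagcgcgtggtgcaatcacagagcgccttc
Nsdhl: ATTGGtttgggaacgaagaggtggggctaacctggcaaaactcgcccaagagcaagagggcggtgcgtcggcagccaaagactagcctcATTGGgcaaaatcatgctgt
Hsd17b7: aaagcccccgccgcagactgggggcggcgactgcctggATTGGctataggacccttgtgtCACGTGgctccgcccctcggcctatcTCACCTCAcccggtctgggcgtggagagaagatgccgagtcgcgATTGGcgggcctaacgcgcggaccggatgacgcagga
Cyp51 and Hsd17b7 thus hold the same TCACCTCA run, and the stretch of Hsd17b7 also holds an E-box and CCAAT boxes. The window of Cyp51 holds 1 CCAAT match too, which lies outside the stretch shown. The TCACNNCA match of Nsdhl and 2 of the 4 CCAAT matches in its window lie outside the stretch shown. The stretches of Lss (233 bases) and Dhcr7 (228 bases) are not shown. That of Lss held a CCAAT match and no TCACNNCA or CACGTG, and that of Dhcr7 held none of the marked motifs.

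The first committed step is catalysed by squalene synthase, the product of Fdft1 (ENSMUSG00000021273, protein-coding, chromosome 14 of GRCm38 from 63145150 to 63179578, minus strand). Fdft1 was at 44.7, 52.0, 52.5, 43.7 and 45.2 CPM in WT 1 to 5 and at 28.3, 44.6 and 37.8 CPM in Rbfox2 KO 1 to 3. Rbfox2 KO 2 lay within the WT range and the others below it. The log2 fold change was -0.37 ± 0.14 (SE, 95% interval -0.68 to -0.05, edgeR unadjusted p = 0.0266, adjusted p = 0.954), and -0.21 without Rbfox2 KO 1, where the unadjusted edgeR p was 0.108. The exons of Fdft1 overlap those of Ctsb, a lysosomal protease gene on the opposite strand, over 774 bases, and 30.7% of the 50-base words of its longest transcript also occur in transcripts of other genes (Ctsb and the pseudogene Gm6781). Ctsb was at 371 ± 21.3 CPM over the WT mice (SD, n = 5) and 399.7 ± 55.1 CPM over the Rbfox2 KO mice (SD, n = 3), so the count of Fdft1 is uncertain to the extent that reads were shared.

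Squalene epoxidase, which adds the oxygen that later becomes the sterol hydroxyl group, is encoded by Sqle (ENSMUSG00000022351, protein-coding, chromosome 15 from 59315077 to 59331192, plus strand). Sqle was at 9.38, 17.2, 19.9, 16.04 and 22.0 CPM in WT 1 to 5 and at 2.45, 8.53 and 5.31 CPM in Rbfox2 KO 1 to 3, from 78 to 743 counts per library. All 3 Rbfox2 KO libraries were below WT 1, the lowest WT library, and Rbfox2 KO 1 was the lowest of the 8. The means were 16.9 ± 4.80 CPM (SD, n = 5) and 5.43 ± 3.04 CPM (SD, n = 3). This was the largest difference among the members, with a log2 fold change of -1.65 ± 0.41 (SE, 95% interval -2.57 to -0.72, edgeR unadjusted p = 0.0032, adjusted p = 0.634). By DESeq2 the adjusted p was 0.00216, the lowest over the 18 alternatives run for this gene, whose adjusted p reached 0.99997. Its log2 fold change stayed between -2.12 and -1.30 in them, the smallest size being that without Rbfox2 KO 1.

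Lanosterol synthase, encoded by Lss (ENSMUSG00000033105, protein-coding, chromosome 10 from 76531588 to 76557138, plus strand), folds the epoxide into the first sterol. Lss was at 8.27, 13.2, 12.2, 12.4 and 17.4 CPM in WT 1 to 5 and at 6.53, 10.4 and 9.85 CPM in Rbfox2 KO 1 to 3. WT 1 lay below Rbfox2 KO 2 and 3, so the groups overlapped. The log2 fold change was -0.51 ± 0.23 (SE, edgeR unadjusted p = 0.0497, adjusted p = 0.99997), and without Rbfox2 KO 1 it was -0.33 (edgeR unadjusted p = 0.187).

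Removal of the methyl group at carbon 14 of lanosterol takes a cytochrome P450 demethylase and then a reductase. The demethylase gene Cyp51 (ENSMUSG00000001467, protein-coding, chromosome 5 from 4081145 to 4104746, minus strand), whose promoter stretch is given above, was at 35.7, 54.6, 61.5, 51.9 and 54.3 CPM in WT 1 to 5 and at 22.4, 42.6 and 28.2 CPM in Rbfox2 KO 1 to 3. WT 1 fell between Rbfox2 KO 2 and 3, and the other WT libraries were above all Rbfox2 KO libraries. Its log2 fold change was -0.73 ± 0.22 (SE, 95% interval -1.23 to -0.24, edgeR unadjusted p = 0.00838, adjusted p = 0.864), and it kept an unadjusted p under 0.05 in all 18 alternatives, among them that without Rbfox2 KO 1, where it was -0.55 (edgeR unadjusted p = 0.0316). Of its exon bases, 3.76% overlap Akap9 on the opposite strand.

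The reductase gene Tm7sf2 (ENSMUSG00000024799, protein-coding, chromosome 19 from 6062821 to 6068373, minus strand) varied least of the 9 among WT mice, with a coefficient of variation of 4.995%. Tm7sf2 was at 63.7, 68.8, 65.6, 59.9 and 65.4 CPM in WT 1 to 5 and at 36.4, 46.6 and 60.9 CPM in Rbfox2 KO 1 to 3. Rbfox2 KO 3 was just above WT 4, while Rbfox2 KO 1 and 2 lay well below every WT library. The log2 fold change was -0.43 ± 0.15 (SE, edgeR unadjusted p = 0.0142, adjusted p = 0.882), and without Rbfox2 KO 1 it was -0.27 (edgeR unadjusted p = 0.0547). Of its exon bases, 12.1% are shared with Vps51 on the same strand, a tethering complex gene at 8.33 ± 0.786 CPM over the WT mice (SD, n = 5) and 8.46 ± 0.592 CPM over the Rbfox2 KO mice (SD, n = 3).

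The 2 methyl groups at carbon 4 are removed by an oxidase, a decarboxylating dehydrogenase and a ketoreductase, encoded by Msmo1, Nsdhl and Hsd17b7, and these 3 genes had unlike values. Whether they differ in response was not tested. Msmo1 (ENSMUSG00000031604, protein-coding, chromosome 8 from 64718139 to 64733792, minus strand) was at 40.5, 59.95, 58.6, 45.5 and 54.6 CPM in WT 1 to 5 and at 12.4, 36.9 and 20.8 CPM in Rbfox2 KO 1 to 3. Rbfox2 KO 2 came closest to the WT range, just under WT 1. The means were 51.8 ± 8.48 CPM (SD, n = 5) and 23.3 ± 12.5 CPM (SD, n = 3), with a log2 fold change of -1.15 ± 0.32 (SE, 95% interval -1.87 to -0.44, edgeR unadjusted p = 0.00539, adjusted p = 0.786). By DESeq2 the adjusted p was 0.0194, and over the alternatives it ran from that value to 0.99997. The log2 fold change was -0.86 without Rbfox2 KO 1, where DESeq2 no longer called it.

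Nsdhl (ENSMUSG00000031349, protein-coding, chromosome X from 72918557 to 72958514, plus strand) had the smallest edgeR p of the 9, ranking at 31 of 14654 tested genes. Nsdhl was at 8.94, 14.1, 11.7, 12.9 and 15.9 CPM in WT 1 to 5 and at 5.21, 8.02 and 6.74 CPM in Rbfox2 KO 1 to 3. All Rbfox2 KO libraries were below all WT libraries, and the Rbfox2 KO values lay closer together than those of Sqle or Msmo1. Means were 12.7 ± 2.60 CPM (SD, n = 5) and 6.66 ± 1.41 CPM (SD, n = 3), a log2 fold change of -0.93 ± 0.20 (SE, 95% interval -1.37 to -0.50, edgeR unadjusted p = 0.000737, adjusted p = 0.328). The DESeq2 adjusted p was 0.00545, against 0.00545 to 0.942 over the alternatives. Leaving out Rbfox2 KO 1 gave -0.79 (edgeR unadjusted p = 0.00419), without a DESeq2 call.

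Hsd17b7 (ENSMUSG00000026675, protein-coding, chromosome 1 from 169949535 to 169969241, minus strand) was the exception. Its levels were 19.1, 32.4, 27.2, 30.0 and 45.2 CPM in WT 1 to 5 and 14.7, 32.4 and 40.0 CPM in Rbfox2 KO 1 to 3. Rbfox2 KO 2 and 3 lay inside the WT range, and in both this was the member with the highest level relative to the WT mean. The log2 fold change was -0.09 ± 0.35 (SE, 95% interval -0.87 to 0.70, edgeR unadjusted p = 0.811, adjusted p = 0.99997), an interval wide enough to hold the fitted differences of Fdft1, Lss, Cyp51, Tm7sf2 and Dhcr7. Its direction turned without Rbfox2 KO 1, to 0.23, and without WT 5, to 0.09.

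The final reduction, of the double bond of 7-dehydrocholesterol, is catalysed by the product of Dhcr7 (ENSMUSG00000058454, protein-coding, chromosome 7 from 143823145 to 143848410, plus strand). Dhcr7 was at 10.7, 10.5, 10.3, 8.81 and 13.7 CPM in WT 1 to 5 and at 9.13, 6.84 and 6.38 CPM in Rbfox2 KO 1 to 3. Rbfox2 KO 1, the lowest library for the other 8 members, was here the highest of its group and the sole Rbfox2 KO library above a WT library (WT 4). The log2 fold change was -0.54 ± 0.17 (SE, 95% interval -0.91 to -0.17, edgeR unadjusted p = 0.00885, adjusted p = 0.864), and it was larger in size without Rbfox2 KO 1, at -0.72.

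Mice of a group were not alike across the pathway. Averaged over the 9 members, log2 CPM relative to the WT mean was -1.21 in Rbfox2 KO 1, -0.40 in Rbfox2 KO 2 and -0.63 in Rbfox2 KO 3. In WT livers the same average ran from -0.38 in WT 1 to 0.26 in WT 5, so WT 1 and Rbfox2 KO 2 were nearly level. WT 1 was the lowest WT library for 6 of the 9 members, and WT 5 the highest of all libraries for 5. Rbfox2 KO 1 was below every WT library for 8 of the 9 members, Rbfox2 KO 2 for 5 and Rbfox2 KO 3 for 6. The coefficient of variation was higher among Rbfox2 KO than among WT mice for 8 of the 9, with medians of 25.6% and 18.5%, while over all tested genes the medians were 15.1% and 15.4%. Rbfox2 KO 1 and WT 1 were also the libraries with the most pancreatic transcripts, and 12 fasting-responsive genes, among them Pdk4 and Cpt1a, had their lowest sum in Rbfox2 KO 1 (7980 CPM), with 10490.3 to 11988 CPM among WT mice and higher sums, 14251 and 15259.5 CPM, in Rbfox2 KO 2 and 3. With WT 1 and Rbfox2 KO 1 both left out, a comparison added after the data were seen, the median log2 fold change of the members was -0.66. Of the 9, 6 were lower at an unadjusted edgeR p under 0.05, against 399 of 14800 tested genes (715 in either direction). The groups of 6 of 9 did not overlap, which is easier to reach with fewer libraries, and the share over all tested genes was not counted there. The part of food intake before fasting and of the time of day in these differences was not tested.

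**Figure D2:**
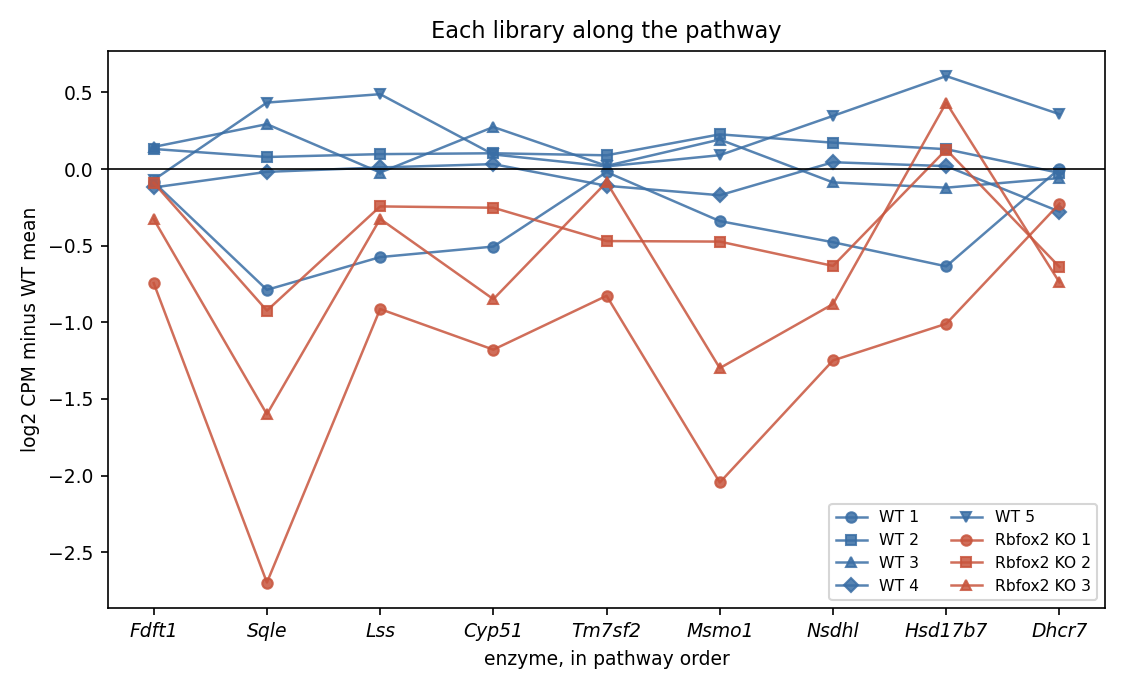
Log2 CPM of each enzyme minus its WT mean (vertical axis), along the pathway from Fdft1 to Dhcr7 (horizontal axis), with a line for each library (blue, WT; red, Rbfox2 KO). The Rbfox2 KO lines dip deepest at Sqle, to -2.70 in Rbfox2 KO 1. Next lowest is Msmo1 in Rbfox2 KO 1 (-2.05) and Rbfox2 KO 3, and Dhcr7 in Rbfox2 KO 2, and 2 of the 3 lines rise above 0 at Hsd17b7.

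Because shares within a library do not depend on the scaling between libraries, the makeup of the pathway's transcripts was also compared. Levels were divided by merged exon length and summed over the 9 genes. Sqle made up 4.79% ± 0.930 of this sum over the WT mice (SD, n = 5) and 2.23% ± 0.807 over the Rbfox2 KO mice (SD, n = 3), and its share was 3.32% to 5.74% in WT against 1.503% to 3.10% in Rbfox2 KO libraries. Msmo1 made up 13.4% ± 0.892 over the WT mice (SD, n = 5) and 8.78% ± 2.88 over the Rbfox2 KO mice (SD, n = 3), again with no overlap (12.5% to 14.5% against 6.85% to 12.1%). The transcripts for squalene epoxidation and for the first step at carbon 4 therefore took smaller shares of the pathway's transcripts in every Rbfox2 KO library than in any WT library. Hsd17b7 made up 9.50% ± 2.13 over the WT mice (SD, n = 5) and 13.2% ± 3.70 over the Rbfox2 KO mice (SD, n = 3), with overlapping ranges. Fdft1 had 18.1% ± 1.92 and 21.2% ± 1.61, also overlapping, and the other 5 members differed by 2.88 percentage points or less.

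On the scale of CPM per kilobase of exon, on which genes can be compared, Tm7sf2 had the highest WT level, at 14.7 ± 0.734 (SD, n = 5), and Lss the lowest, at 1.18 ± 0.300 (SD, n = 5). The order between them was Cyp51 (11.7), Fdft1 (11.3), Msmo1 (8.43), Hsd17b7 (6.03), Nsdhl (4.45), Sqle (3.05) and Dhcr7 (1.86). Cyp51 and Fdft1 did not differ beyond their spread, and Msmo1 and Hsd17b7, Hsd17b7 and Nsdhl, and Nsdhl and Sqle differed by less than the sum of their SDs, although the higher was above the lower in 5 of 5 WT libraries for these last 3 pairs. The remaining neighbours differed by more than the sum of their SDs. The merged exon length exceeds the longest transcript for every member, which lowers values on this scale to unlike degrees. The 2 lengths are 6144 and 2969 bases for Msmo1, 5817 and 2815 for Dhcr7, and 10787 and 6992 for Lss. The order of the genes, including that of Sqle and Dhcr7, therefore depends on the length used, and an order by longest transcript was not computed. In Rbfox2 KO livers the mean of Sqle, 0.979 ± 0.549 (SD, n = 3), was below that of Dhcr7, 1.28 ± 0.253 (SD, n = 3). Sqle was the lower of the pair in Rbfox2 KO 1 and 3 and in WT 1, and the higher in the other libraries.

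**Figure D3:**
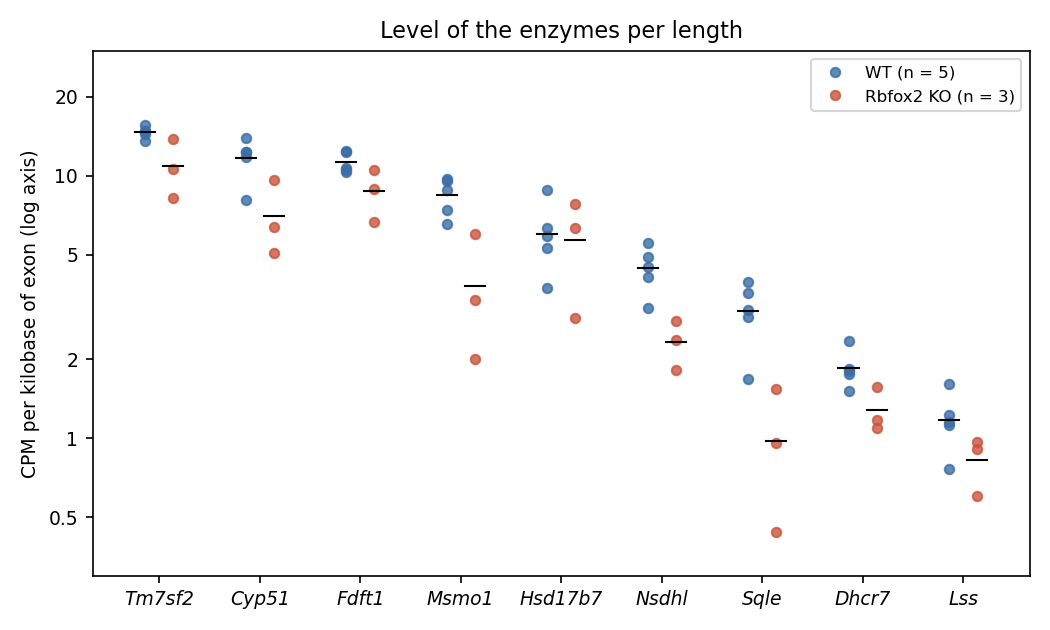
CPM per kilobase of merged exon (log axis) for each enzyme, ordered by WT mean, in 5 WT libraries (blue) and 3 Rbfox2 KO libraries (red), with group means as black lines. WT means span 14.7 for Tm7sf2 to 1.18 for Lss, and the mean of Sqle is below that of Dhcr7 in Rbfox2 KO, with Rbfox2 KO 2 the other way.

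The steps around the 9 enzymes gave context. Of 4 further genes of the late branch, 3 were lower in Rbfox2 KO, 1 at an unadjusted edgeR p under 0.05 (2.33% of all tested genes were) and 0 at an adjusted p of 0.05, with a median log2 fold change of -0.17. That count was 0 without Rbfox2 KO 1, WT 2 or WT 3, with library totals and with no filter on low counts, and DESeq2 called 0 of the 4. The sterol C5-desaturase gene Sc5d had 157.7 ± 8.06 CPM over the WT mice (SD, n = 5) and 134.8 ± 4.31 CPM over the Rbfox2 KO mice (SD, n = 3) (log2 fold change -0.23 ± 0.09, SE, edgeR unadjusted p = 0.0273, adjusted p = 0.954), with all Rbfox2 KO libraries below WT. Erg28, which encodes a scaffold of the carbon 4 enzymes, had -0.27 ± 0.13 (SE, edgeR unadjusted p = 0.0712). Ebp, the sterol isomerase, had -0.11 and Lbr, a nuclear membrane protein with the same reductase activity as Tm7sf2, had 0.08. Whether these genes and the 9 members differ in response was not tested.

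Upstream, all 8 genes of the mevalonate branch examined were lower, 6 at an unadjusted edgeR p under 0.05 and 0 at an adjusted p of 0.05, with a median of -0.82. DESeq2 called 4 of the 8 lower at an adjusted p of 0.05 (Hmgcs1, Mvd, Idi1 and Fdps), against 0.253% of the genes it tested. Without Rbfox2 KO 1 the counts were 6 by edgeR at an unadjusted p and 3 by DESeq2, which no longer called Idi1. By edgeR, 331 of 14867 tested genes were lower there at an unadjusted p under 0.05, and the DESeq2 share is not given. Mvd, the last enzyme before isopentenyl pyrophosphate, was at 35.2% of the WT mean, Fdps, which makes farnesyl pyrophosphate, at 44.7%, and Hmgcs1, which makes the precursor of mevalonate, at 53.9%. Fdft1, whose product uses what Fdps makes, was at 77.5% of the WT mean. Of 11 genes for the control of SREBP2 and for sterol transport, 7 were lower and 4 higher, and by edgeR 0 of the 11 had an adjusted p under 0.05 and 0 an unadjusted p under 0.05. DESeq2 called 0 of the 11. The count at an unadjusted edgeR p was also 0 without Rbfox2 KO 1, but 3 without WT 1 (Mbtps1, Stard4 and Syvn1). It was 3 without both WT 1 and Rbfox2 KO 1 (Insig1, Stard4 and Syvn1), 1 without Rbfox2 KO 2 (Stard4) and 1 without Rbfox2 KO 3 (Syvn1). All of these were lower. Over all tested genes, 455 of 14578 were lower at that threshold without WT 1, and 399 of 14800 without both libraries. The numbers were 401 of 15058 without Rbfox2 KO 2 and 384 of 14950 without Rbfox2 KO 3. Syvn1, a ubiquitin ligase of the endoplasmic reticulum, had -0.34 ± 0.19 (SE) and Srebf2 itself -0.41 ± 0.24 (SE, edgeR unadjusted p = 0.107 and 0.116). Stard4, a sterol transfer protein gene, had -0.52 ± 0.30 (SE, edgeR unadjusted p = 0.12). Insig1 had the largest difference of this list, at -0.61 ± 0.36 (SE, edgeR unadjusted p = 0.132). The median of this list was -0.025, and over all tested genes 2.33% were lower and 2.41% higher at an unadjusted p under 0.05.

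**Figure D4:**
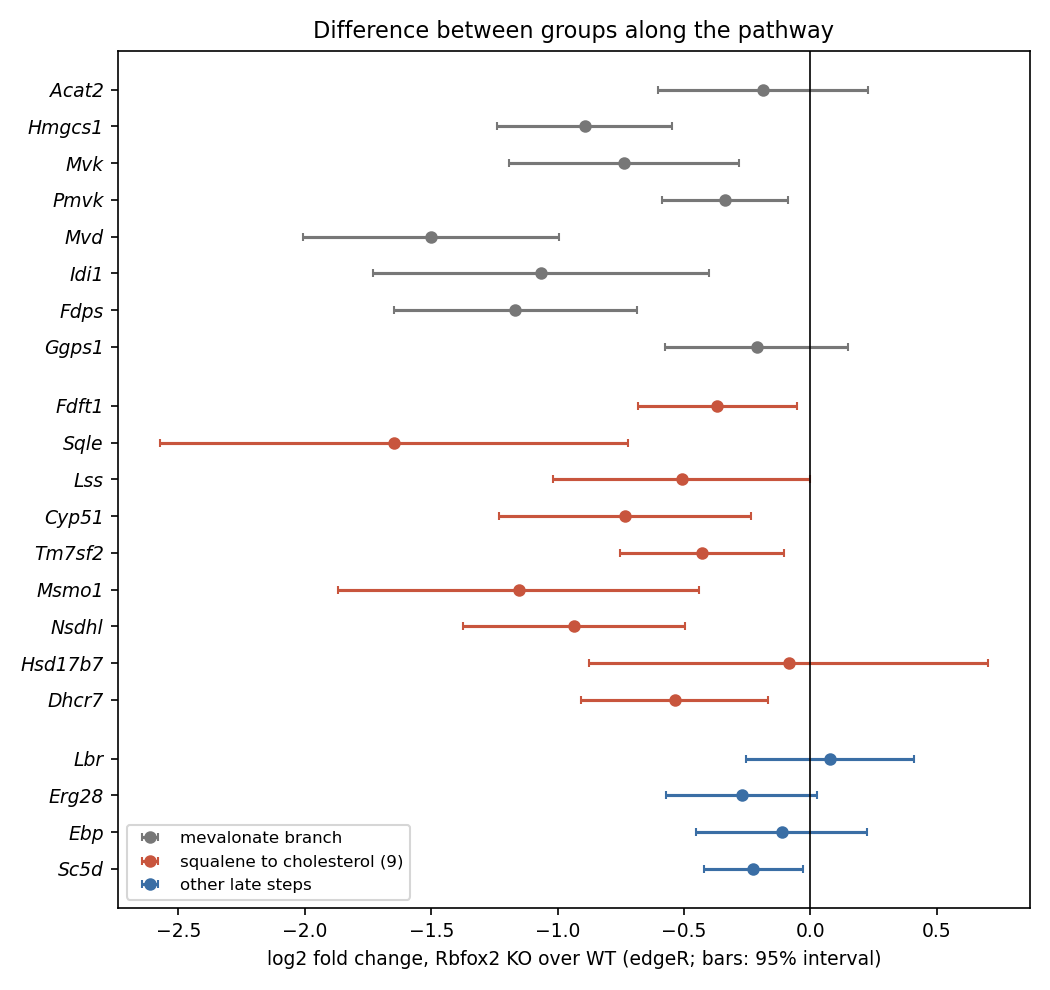
Log2 fold change of Rbfox2 KO over WT with its 95% interval (edgeR, 5 and 3 libraries) for 8 genes of the mevalonate branch (grey), the 9 enzymes from squalene synthase on (red) and 4 further late genes (blue), each in pathway order. Of the 9 red intervals, that of Hsd17b7 clearly spans 0, that of Lss ends at -0.000695 and Sqle lies farthest to the left.

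The genes whose pattern was most like that of the 9 members were sought among all tested genes outside these lists, by correlation over the 8 libraries with the members' mean standardized log2 CPM. Since they are the highest of 14654 genes, and the libraries include both genotypes, the correlations are descriptions without a test. The 10 highest had Pearson's r of 0.953 to 0.979 and Spearman's rho of 0.881 to 0.976, and were Fto, Gm13502, Aatk, Dnhd1, Ptprd, Tbc1d9b, A930004J17Rik, Gm10319, Fam120b and Gm7887. Gm13502 is a processed pseudogene, and 100% of its 50-base words also occur in Idi1, the isomerase of the mevalonate branch, so its reads may be those of Idi1. Fto, an RNA demethylase gene, followed the members over a much narrower range, at 17.3 ± 0.394 CPM over the WT mice (SD, n = 5) and 16.2 ± 0.433 CPM over the Rbfox2 KO mice (SD, n = 3). Aatk, a kinase gene, was at 10.6 ± 1.76 CPM over the WT mice and 6.08 ± 2.28 CPM over the Rbfox2 KO mice. Among the members themselves Sqle followed the mean most closely (r = 0.988), and Hsd17b7 (r = 0.655) and Dhcr7 (r = 0.553) least. Each member is part of that mean, which raises its r, so these values cannot be set against those of the outside genes.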

How the data were processed

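Poly(A)-selected NEBNext Ultra II libraries of whole liver RNA were sequenced by the authors as paired-end reads. Per the labels, the submitters' processing notes name CASAVA 1.8.4, TopHat2 2.0.11 and featureCounts, and builds mm10 and GRCm38. The study's methods give alignment as strand-specific. The use of strand in counting and the handling of multiply aligned reads are not given in the sources used here. The authors deposited a table of read counts by Ensembl gene, not normalized.

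From these counts, genes were filtered with filterByExpr, scaled by TMM and fitted by edgeR 4.0.16 under R 4.3.3 (glmQLFit with robust set, then glmQLFTest), with genotype as the single term over all 8 libraries and Benjamini-Hochberg adjustment over 14654 genes. The SE is the fold change over the square root of F. DESeq2 1.42.0 and limma 3.58.1 (voom) were alternatives, as were other scalings and filters, a replicate block and leaving out each library. All fits were tested on simulated counts. Log2 CPM used a prior count of 2. Positions, merged exon lengths and symbols are from GENCODE M21 (GRCm38), which named 45229 of the 46078 genes.

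A level of 3 counts equals 0.0839 to 0.118 CPM, which covers counting error only. The members and gene lists were chosen with earlier results of these data known. Named were the 9 members, Rbfox2, the 3 genes of each pathway list with the smallest p with further genes of those lists, the 10 genes most like the members, leading markers, and genes that overlap a member. Some genes of the pathway lists are not reported here. The labels number mice and give no origin that would tie a WT mouse to the Rbfox2 KO mouse of the same number.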

Additional observations from a re-analysis of the deposited data

Results flagged for a closer look

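In the 5 WT libraries, 45 values were searched for a library set apart from the other WT libraries, by the gap to its nearest neighbour over the whole range against a critical value of 0.71, which chance alone passes in about 5% of such groups. For the 9 members 0 values passed, and 3 of the 45 did. Insig1, which retains SCAP in the endoplasmic reticulum, was at 54.3 CPM in WT 1 against 103.8 to 123.7 CPM in the others (gap 0.713 of the range). The 12 pancreatic exocrine genes summed to 16.8 CPM in WT 1 against 4.78 to 5.32 CPM (0.955). The 6 sinusoidal endothelial markers summed to 158.9 CPM in WT 5 against 142.7 to 146.5 CPM (0.766). WT 1 was also the lowest WT library for 6 of the 9 members. Their part in the group difference was not tested, and leaving out WT 1 gave the members a median log2 fold change of -0.64.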

How the results depend on the processing

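The members' median log2 fold change ran from -0.66 to -0.43 over all alternatives, within the spread of the WT mice (SD 0.24 on the log2 scale) around -0.54. The count at an unadjusted p was 8, became 4 with library totals, and ran from 5 to 8 with single libraries left out, the lowest without Rbfox2 KO 1. Over all tested genes that count was 694, became 465 with library totals, and ran from 509 to 972 with single libraries left out. The count past an adjusted p of 0.05 was 0, became 3 with DESeq2, and with DESeq2 and single libraries left out, chosen after the data were seen, ran from 1 (without Rbfox2 KO 1 or WT 2) to 4 (without Rbfox2 KO 2 or WT 1). Sqle was called in all 8 of those fits. The count of members without overlap was 3 and ran from 3 to 6 with single libraries left out, at 5 without WT 1, 6 without WT 4, 5 without Rbfox2 KO 2 and 6 without both WT 1 and Rbfox2 KO 1. Leaving out a library removes values and otherwise changes only the scaling, so this count could hardly fall. Its range is therefore no measure of stability, and the share over all tested genes was not counted for the smaller sets. Rbfox2 passed with DESeq2 (-1.03). Hsd17b7 ran from -0.39 without Rbfox2 KO 3 to 0.23 without Rbfox2 KO 1 and turned direction there, with the replicate block (0.066), without WT 5 (0.094) and without both WT 1 and Rbfox2 KO 1 (0.095), and no other member turned. The cause was not tested. Same-numbered WT and Rbfox2 KO mice deviated from their group means with correlations of 0.163, 0.0484 and 0.170, so the numbers were not taken as pairs, and not every library correlated best with its own number. With the replicate block the members' median was -0.51, 8 had an unadjusted p under 0.05 and 0 passed the adjusted threshold. Over all 14654 tested genes, 739 had an unadjusted p under 0.05 with the block. Of the SREBP2 control genes, 2 had an unadjusted p under 0.05 with the block (Insig1 and Stard4). Sqle, Nsdhl and Dhcr7 reached the lowest counts in a library, at 78, 166 and 174.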

Other observations

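Other gene lists gave values without a comparison of their own. The 6 Kupffer cell markers summed to 176.8 to 202 CPM in WT and 189 to 253 CPM in Rbfox2 KO libraries, and 2 of the 6 (Cd5l and Marco) were higher at an unadjusted edgeR p under 0.05, as were 2.41% of all tested genes. The 6 stellate cell markers summed to 207 to 275 CPM and 202 to 293 CPM, the 5 cholangiocyte markers to 20.5 to 32.2 CPM and 24.9 to 31.8 CPM, and the 6 lymphocyte markers to 1.65 to 9.66 CPM and 1.73 to 2.92 CPM. Of the 6 lymphocyte markers, 2 (Cd79a and Ms4a1, of B cells) were lower at an unadjusted p under 0.05, as were 2.33% of all tested genes. Transcripts of 8 skeletal muscle genes ranged from 8.61 to 368 CPM in WT and from 1.22 to 216 CPM in Rbfox2 KO libraries. The 10 lipogenic genes of the fed state summed to 2872 to 6630 CPM in WT and 3871 to 5850 CPM in Rbfox2 KO, with 1 of 10 (Srebf1) lower at an unadjusted p under 0.05, and 12 clock genes to 242.7 to 352 CPM and 264 to 365 CPM, with 0 of 12 at an unadjusted p under 0.05 in either direction. Of the 12 fasting-responsive genes, 1 (Fgf21) was higher at an unadjusted p under 0.05. No gene of these lists passed an edgeR adjusted p of 0.05.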
